A study of Arabidopsis thaliana with 11 samples.

Results

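YUC2, YUC4 and SHI are 3 Arabidopsis thaliana genes linked to the synthesis of auxin. They were taken by their annotation on the Affymetrix ATH1 array, where each has 1 probe set of its own: 254758_at for YUC2 (AT4G13260), 250389_at for YUC4 (AT5G11320) and 247093_at for SHI (AT5G66350). They are 3 of 13287 genes that could be named from a probe set with a single gene. The arrays held RNA of 3 tissues of the accession Landsberg erecta (Ler), with 3 stigma, 4 ovary and 4 seedling arrays and no other genotype or treatment. For stigma and ovary, buds at stage 8 were emasculated and pistils were taken 1 day later, when the stigma was cut from the ovary, and the labels do not say on which side of the cut the style fell. Seedlings were whole plants grown for 10 days on Murashige and Skoog medium. Whether arrays of a tissue came from separate plants or cultures is not stated, so the p-values rest on a spread between samples that could be technical.

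Auxin, mainly indole-3-acetic acid, is made from tryptophan in a pair of steps. Aminotransferases of the TAA family form indole-3-pyruvate, and flavin monooxygenases of the YUCCA family, to which YUC2 and YUC4 belong, turn it into auxin. SHI, named for the short internodes of a mutant, encodes a zinc finger protein of the SHI/STY family. Its relative STY1 is known to switch on YUC4, and members of the family act together in the style and stigma, where auxin gathers at the tip of the gynoecium.

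The tissue labels were checked against marker genes. AT3G12000 (SLR1), the measured stigma marker of 2 listed, had signals of 12910.4 to 14658.7 on stigma arrays, 124 to 1832.3 on ovary arrays and 46.4 to 68.4 on seedling arrays. The 1832.3 belonged to ovary 1. The summed signal of 2 measured ovule and ovary markers of 5 listed (INO and SWEET9) was 309.9 to 390.8 in stigma, 5169.2 to 8080.4 in ovary and 180.5 to 418.7 in seedling. The summed signal of 4 of 4 photosynthesis markers was 44293.8 to 49265.0 in seedling and at most 19052.6 in the pistil parts. No marker measured was at 0 on any array. Seedling 4 had the lowest mean rank correlation with the other arrays of its tissue, 0.945, against 0.962 to 0.971 for the 10 others.

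The levels of the 3 genes differed in pattern. YUC4 was high in the stigma and low in both other tissues, SHI was highest in the ovary, and YUC2 lay at similar levels in all 3 tissues, with overlapping arrays. Signals of different probe sets do not compare between genes, so each gene was ordered among tissues and not against the other genes. Because each sample is a bulk tissue, fewer cells that express a gene and less RNA per cell cannot be told apart.

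**Figure D1:**
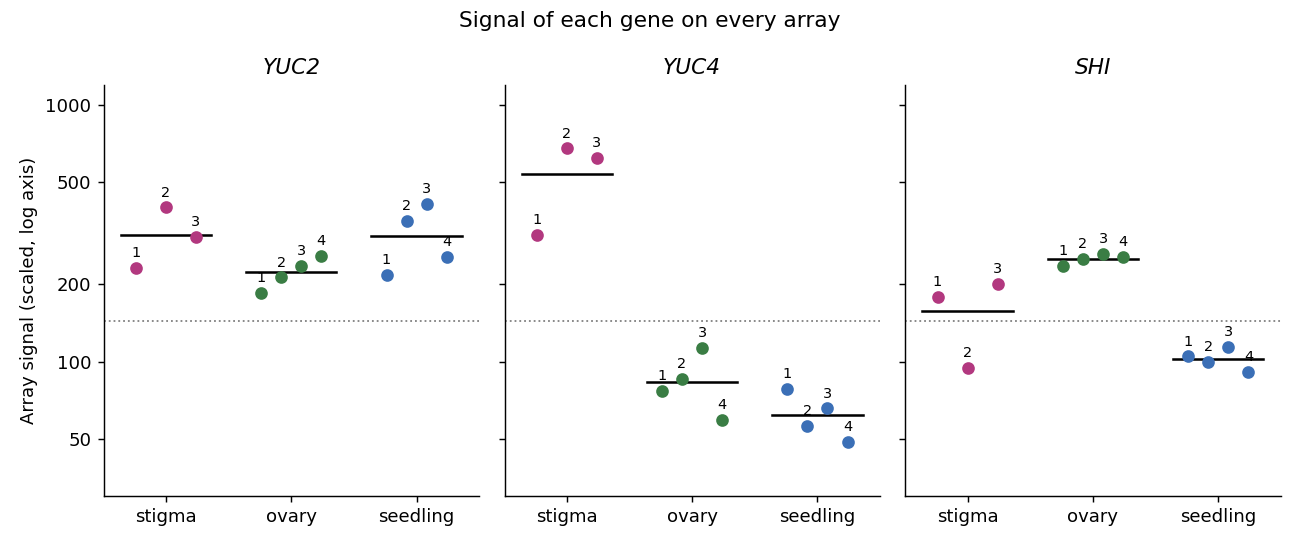
Array signal (log axis) of YUC2, YUC4 and SHI on each of the 11 arrays. Points are single arrays, with their replicate number above, black lines are tissue means, and the dotted line is the signal of 144.2 used in the filter on dim probe sets. The 3 stigma arrays of YUC4 sit at 311.0 or more and all other arrays at 113.3 or less, whereas SHI on stigma 2 falls among the seedlings.

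Differences between tissues were tested with limma on the log2 of the signal plus 17.3, over all 15524 probe sets that passed the filter and all 11 arrays. A gene passed if its p-value, adjusted over these probe sets by the Benjamini-Hochberg method, was under 0.05. A log2 difference on this scale understates the change of dim transcripts. Between stigma and ovary 34.7% of the tested probe sets passed, as did 49.2% between stigma and seedling and 51.9% between ovary and seedling. Of the 3 genes, 2 passed in the first of these comparisons and 1 in each of the others. Counts over 3 genes are too small to be read against those shares.

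YUC4 had signals of 311.0, 678.6 and 622.2 on the stigma arrays. On the ovary arrays the signals were 76.6, 85.5, 113.3 and 59.1. On the seedling arrays it had 78.0, 56.1, 65.7 and 48.5. Every stigma array lay above every array of the other tissues, and stigma 1 was the lowest of the stigma arrays, while ovary and seedling overlapped. The mean was 537 ± 198 (SD, n = 3) in stigma, 83.6 ± 22.6 (SD, n = 4) in ovary and 62.1 ± 12.7 (SD, n = 4) in seedling, which is 6.42 times the ovary signal and 8.66 times the seedling signal. No overlap of arrays was found for 45.2% of tested probe sets between stigma and ovary and for 51.4% between stigma and seedling. The signed difference of YUC4 was above that of 98.8% of tested probe sets in the first comparison and 97.8% in the second. It had entered the test through stigma arrays alone.

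Between stigma and ovary the log2 difference of YUC4 was 2.41 (SE 0.29, 95% interval 1.79 to 3.03), with an adjusted p of 3.19e-05 in limma. The difference was 1.74 within run A, which held stigma 1 (whose spread was taken from the other groups), ovary 1 and ovary 2, and 2.74 within run B, which held stigma 2, stigma 3, ovary 3 and ovary 4; runs are the periods in which arrays were scanned. The difference between the runs was not past the threshold in limma (0.999, unadjusted p = 0.0429, adjusted p = 0.461). Chip lots 1 and 2 divide these arrays in the same way. No ovary or seedling array passed the filter signal for YUC4. With no filter the adjusted p in limma was 5.44e-05.

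Against the seedling the log2 difference of YUC4 was 2.74 (SE 0.29, 95% interval 2.13 to 3.36), with an adjusted p of 3.72e-06 in limma. No scanning run held both tissues. Chip lots 1 and 2 did, but with 1 stigma against 1 seedling array in lot 1 and 2 stigma against 1 seedling array in lot 2. The difference was 1.78 in lot 1 and 3.18 in lot 2, with the spread of a lone array assumed to be like that of the other groups. Ovary and seedling were not separated for YUC4, with a difference of 0.33 (SE 0.26, 95% interval −0.24 to 0.90, adjusted p = 0.311 in limma). The order of its levels was thus stigma, then ovary and seedling, the last neighbours not differing beyond their spread.

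SHI followed another order. Its signals were 178.5, 94.7 and 200.6 on the stigma arrays. On the ovary arrays they were 236.1, 252.1, 262.2 and 255.8, and on the seedling arrays 104.7, 99.5, 114.3 and 90.9. The ovary arrays were close together and above all others, and the seedling arrays were close together below them. The stigma arrays were spread out, with stigma 2 inside the range of the seedlings. Means were 158 ± 55.9 (SD, n = 3) in stigma, 252 ± 11.1 (SD, n = 4) in ovary and 102 ± 9.79 (SD, n = 4) in seedling.

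SHI was higher in ovary than in seedling, by 1.17 on the log2 scale (SE 0.21, 95% interval 0.72 to 1.62, adjusted p = 0.000408 in limma), or 2.46 times in mean signal. This signed difference was above that of 91.7% of tested probe sets; the arrays of 47.6% of probe sets did not overlap between these tissues. SHI entered the test through 4 ovary and 2 stigma arrays and no seedling array, a route that favours a higher level in ovary than in seedling. With no filter the adjusted p in limma was 0.000815. No scanning run held both ovary and seedling arrays. Within chip lots 1 and 2 the difference was 1.10 and 1.24. Each of these lots had 1 seedling array, whose spread was taken from the other groups, and in lot 1 the difference did not pass (adjusted p = 0.0546 in limma).

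SHI was lower in stigma than in ovary by less than 2-fold, with a log2 difference of −0.67 (SE 0.22, 95% interval −1.16 to −0.19, adjusted p = 0.0328 in limma). This call ended in 13 of 27 alternatives. In that count, runs A and B and chip lots 1 and 2 entered separately, though they hold the same stigma and ovary arrays. Without stigma 2, the lowest stigma array, the difference was −0.38 with an adjusted p of 0.177 in limma. Leaving out any 1 of the 4 ovary arrays also ended it, at adjusted p-values of 0.0518 to 0.0656 in limma, with the difference between −0.70 and −0.65. The difference was −0.42 within run A and −0.82 within run B, neither of which passed (adjusted p = 0.440 and 0.0528 in limma). With equal array medians the call ended as well (−0.52, adjusted p = 0.0782 in limma), and over all alternatives the adjusted p ran from 0.0184 to 0.487. Against the seedling SHI differed by 0.50 (SE 0.22, 95% interval 0.01 to 0.98), which did not pass (adjusted p = 0.0832 in limma). Without stigma 2 that difference was 0.79 and passed, with an adjusted p of 0.00590. In the order ovary, stigma and seedling, the ends are separated, with tissue and scanning run not told apart. The stigma is not firmly placed against either end.

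YUC2 had signals of 231.4, 399.2 and 305.5 on the stigma arrays. On the ovary arrays the signals were 184.7, 213.0, 235.7 and 257.9, and on the seedling arrays 217.5, 355.0, 410.7 and 256.8. The ranges of all 3 tissues overlapped, with the ovary arrays at the lower end. Means were 312 ± 84.1 (SD, n = 3) in stigma, 223 ± 31.3 (SD, n = 4) in ovary and 310.0 ± 88.6 (SD, n = 4) in seedling. All 11 arrays passed the filter signal.

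No comparison of YUC2 passed the threshold. The log2 difference was 0.43 between stigma and ovary (SE 0.24, 95% interval −0.07 to 0.94, adjusted p = 0.175 in limma). It was −0.42 between ovary and seedling (SE 0.22, 95% interval −0.89 to 0.05, adjusted p = 0.127 in limma), and 0.02 between stigma and seedling (SE 0.24, 95% interval −0.49 to 0.52, adjusted p = 0.958 in limma). On this scale and in the main fit, these intervals exclude a 2-fold difference in either direction for each pair of tissues. They leave room for smaller ones. Under the alternatives the difference between stigma and ovary reached 0.62, and intervals under the alternatives were not examined. Scaling bears on the ovary. With equal array medians or quantile normalization the difference between ovary and seedling was −0.53 in both and passed (adjusted p = 0.0468 and 0.0415 in limma). Over all tested probe sets, equal medians moved the median difference from −0.07 to 0.08 between stigma and ovary and from 0.12 to 0.01 between ovary and seedling. Of the probe sets that passed between stigma and ovary, 40.2% were higher in stigma, and 56.4% with equal medians.

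**Figure D2:**
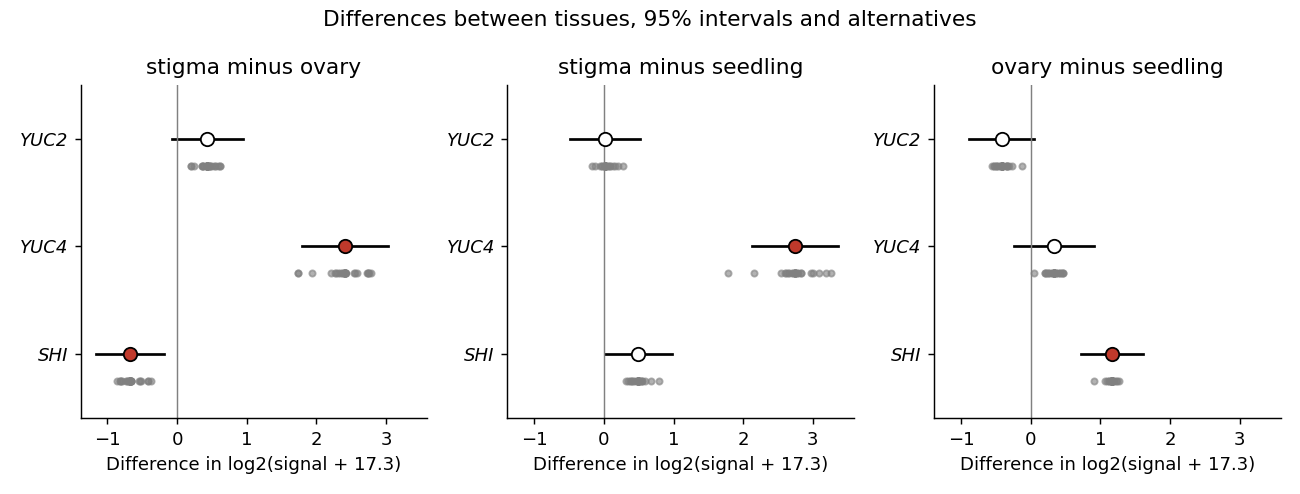
Log2 difference of YUC2, YUC4 and SHI in the 3 comparisons. Large points are the fitted differences, filled where the adjusted p was under 0.05, lines are 95% intervals, and small grey points are the values under the alternative settings. YUC4 lies at 1.74 or more against the ovary and at 1.78 or more against the seedling under every alternative in which it was tested.

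Whether 2 of the genes changed unequally was asked with the log2 ratio of their signals on the same array, a value that a scaling of the whole array changes only through the pseudocount. There were 9 tests, 3 gene pairs in 3 comparisons, each an exact two-sided permutation test whose smallest possible p was 0.0286. The genes were chosen with earlier results of these data known, and YUC4 was above the filter signal on stigma arrays alone. Since the ratios reuse the signals tested in limma, each difference in a ratio is the gap between the limma differences of its 2 genes. The ratio tests therefore restate those differences and are no separate support for YUC4, SHI or YUC2. For SHI over YUC4 the ratio was −0.75, −2.64 and −1.55 on the stigma arrays. On the ovary arrays it was 1.43, 1.39, 1.10 and 1.84, and on the seedling arrays 0.36, 0.67, 0.66 and 0.72. The tissues did not overlap in this ratio, and each of the 3 comparisons reached the smallest exact p (adjusted p = 0.0368 over the 9 tests), with a difference of −3.08 between stigma and ovary, −2.25 between stigma and seedling and 0.84 between ovary and seedling.

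YUC4 over YUC2, the ratio of the 2 YUCCA genes, was higher in stigma than in ovary by 1.98 and than in seedling by 2.73, both at the smallest exact p (adjusted p = 0.0368). Between ovary and seedling it differed by 0.75 (exact p = 0.0571, adjusted p = 0.0642). SHI over YUC2 was lower in stigma than in ovary by a difference of −1.11 and higher in ovary than in seedling by 1.59, again at the smallest exact p. Between stigma and seedling it differed by 0.48 (exact p = 0.343). In these comparisons the exact tests bear on unequal change of a pair of genes, not on which gene of the pair changed. For all 3 pairs, the results are no separate support for the differences of YUC4 and SHI found in limma.

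**Figure D3:**
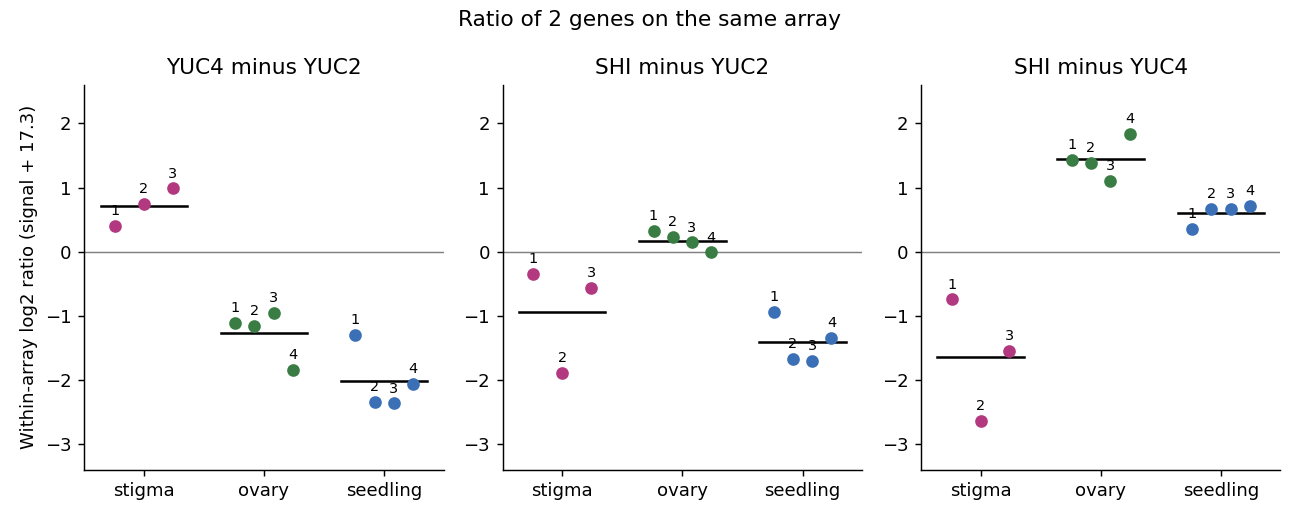
Within-array log2 ratio of 2 genes, by tissue, for the 3 gene pairs. Points are single arrays with their replicate number and black lines are tissue means. The ratio of SHI to YUC4 is below 0 on all stigma arrays and lies between 0.36 and 1.84 on all ovary and seedling arrays, the ovary arrays being highest.

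Other values moved with the tissues. The mean log2 ratio of 3' to 5' control probe sets, a measure of RNA degradation and labelling, was 2.34 ± 0.76 (SD, n = 3) in stigma, 1.496 ± 0.39 (SD, n = 4) in ovary and 1.19 ± 0.32 (SD, n = 4) in seedling, and stigma 1 had the highest value, 3.204. With this ratio as a covariate the difference of YUC4 was 2.79 against ovary and 3.26 against seedling, and that of SHI between stigma and ovary no longer passed (−0.74, adjusted p = 0.0797 in limma). Of 6 pollen markers 5 were measured, and their summed signal was 626.0 to 1001.2 in stigma, 548.8 to 742.0 in ovary and 600.4 to 1057.2 in seedling. Most of that sum was TUA1, at 495.6 to 659.6 in stigma, 507.9 to 656.7 in ovary and 568.1 to 1007.4 in seedling. The 4 dimmer pollen markers all reached their highest signals in stigma. AT59 had 82.8 to 128.5 in stigma, 7.1 to 56.4 in ovary and 5.2 to 9.1 in seedling, without overlap between stigma and the others. ANX2 had 40.7, 59.6 and 153.7 in stigma against at most 40.8 elsewhere. ACT12 had 4.3, 55.6 and 54.6 in stigma against at most 24.2 elsewhere. For all 5 measured pollen markers stigma 1 was the lowest stigma array, as for YUC4. ANX1 had 2.6 to 11.6 in stigma and at most 7.2 elsewhere, under the pseudocount of 17.3 on every array. The part of pollen RNA in the results was not tested. Without stigma 1, ovary 1 and seedling 4 together, the difference of YUC4 was 2.73 against ovary and 2.999 against seedling.

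The surrounding pathway was read from 7 lists with 65 genes in all, of which 17 could be matched to a probe set of their own and 16 were tested. The supplied annotation gave no gene for 8730 probe sets, so an unmatched gene may still be on the array, and a list result covers few of its genes. All lists were written with earlier results of these data known, so their counts are descriptions. Of the 13 tested genes other than YUC2, YUC4 and SHI, 5 passed as higher and 4 as lower in stigma than in ovary, where 13.9% and 20.7% of all tested probe sets did. Against the seedling 6 passed as higher and 5 as lower in stigma, beside 25.1% and 24.1% of all. Between ovary and seedling 3 passed as higher and 4 as lower in ovary, beside 30.5% and 21.3% of all. Of these 13, NGA3 and GH3.1 entered the test through stigma arrays alone and GH3.3 and AT1G14120 through seedling arrays alone, so these 4 had to differ between tissues. GH3.17 entered through ovary and seedling arrays and no stigma array, which favours a lower level in stigma. Of the 11 YUCCA genes 4 were matched. YUC6, another auxin-forming monooxygenase, had the reverse pattern of YUC4 within the pistil. It entered the test through 3 ovary arrays and 1 seedling array, a route that favours this pattern. Its signals were 29.3, 29.3 and 45.5 in stigma and 177.0, 128.0, 215.6 and 163.8 in ovary, without overlap, and it had 82.5, 38.2, 112.4 and 175.2 in seedling. It was lower in stigma than in ovary by a log2 difference of −1.85 (SE 0.36, adjusted p = 0.00145 in limma). Against the seedling it was −1.08 (SE 0.36, adjusted p = 0.0248 in limma), a call that ended in 11 of 25 alternatives, with −0.04 within chip lot 2, which has 1 seedling array. YUC11 was below the filter, at 30.7 or less on every array. No gene of the TAA family and none of the aldoxime, acetamide and nitrile route could be matched through that annotation, and of 10 genes in the SHI/STY family it matched SHI alone. AT2G04400, the single measured gene of tryptophan synthesis, differed by −0.98 between stigma and ovary (SE 0.24, adjusted p = 0.00578 in limma), with 544 ± 112 in stigma and 1079 ± 78.5 in ovary.

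Among regulators of the style and stigma known to act upstream of or beside the YUCCA genes, 5 of 10 were measured. Between stigma and ovary 4 of these 5 were higher in stigma and none lower, with a median difference of 1.15 against −0.07 over all tested probe sets; 13.9% of all tested probe sets passed as higher. The 4 were the NGATHA genes, which encode B3 domain factors of style development. NGA1, for example, had 868.6, 826.7 and 899.3 in stigma and 188.1 to 276.6 in ovary, and NGA2 had 482.5 to 531.5 and 302.7 to 396.9, neither overlapping. Against the seedling 5 of 5 passed as higher, with a median of 0.93 against 0.04, where 25.1% of all tested probe sets passed as higher. SPT, a bHLH factor of carpel margins, was the fifth (0.77, SE 0.15, adjusted p = 0.000894 in limma). NGA3 entered the test only through its stigma arrays, and NGA4 through those and 1 seedling array. Both were thus favoured to be higher in stigma than in ovary, and the median of 1.15 is the value of NGA4. Because this list was written with earlier results of these data known, its counts and medians are descriptions only. The call of NGA2 between stigma and ovary ended in 8 of 28 alternatives, and that of NGA4 between stigma and seedling in 13 of 25. For NGA2, runs and chip lots that hold the same stigma and ovary arrays were counted separately.

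Genes of auxin inactivation did not move as a block, and 6 of 10 were measured. GH3.1, of a family whose enzymes join auxin to amino acids, was high where YUC4 was high. Its signals were 176.6, 535.4 and 416.3 in stigma, 49.7, 14.8, 26.6 and 16.8 in ovary, and 57.2, 66.7, 43.1 and 10.1 in seedling. Stigma 1 was again the lowest stigma array, and stigma overlapped with neither other tissue. The fitted log2 difference to the ovary was 3.09 (SE 0.46, adjusted p = 0.000186 in limma), and to the seedling it was 2.66 (SE 0.46, adjusted p = 0.000303 in limma). With 2 ovary arrays under the pseudocount of 17.3, the first of these depends on the setting, and it ran from 2.06 to 3.88 over its alternatives, past the threshold in 27 of 27. Like YUC4, GH3.1 entered the test through its stigma arrays alone.

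Other inactivation genes had other patterns, most with their highest level in seedling. GH3.17, whose enzyme joins auxin to glutamate, had 88.0 to 110.5 in stigma, 256.9 to 318.3 in ovary and 381.8 to 974.8 in seedling. It entered the test through ovary and seedling arrays and no stigma array, a route that favours a lower level in stigma. Its 3 tissues did not overlap, and it was lower in stigma than in ovary by −1.32 on the log2 scale (SE 0.27, adjusted p = 0.00221 in limma) and than in seedling by −2.39 (SE 0.27, adjusted p = 9.08e-06 in limma). GH3.3, which entered the test through its seedling arrays alone, and WES1 (GH3.5) were lower in stigma than in seedling, by −2.15 (SE 0.53, adjusted p = 0.00423 in limma) and −1.69 (SE 0.37, adjusted p = 0.00191 in limma). AT1G14130 was higher in ovary than in both other tissues, with 558 ± 50.8 against 302 ± 26.0 in stigma and 287 ± 48.9 in seedling. AT1G14120, which also entered through seedling arrays alone, had 187.0 to 505.1 in seedling and at most 47.4 in the pistil parts. In all, 1 of 6 passed as higher and 2 as lower in stigma than in ovary, and 1 as higher and 4 as lower in stigma than in seedling. The median differences were −0.39 and −1.92, against −0.07 and 0.04 over all tested probe sets. Of all tested probe sets, 20.7% and 24.1% passed as lower in stigma, and 13.9% and 25.1% as higher.

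**Figure D4:**
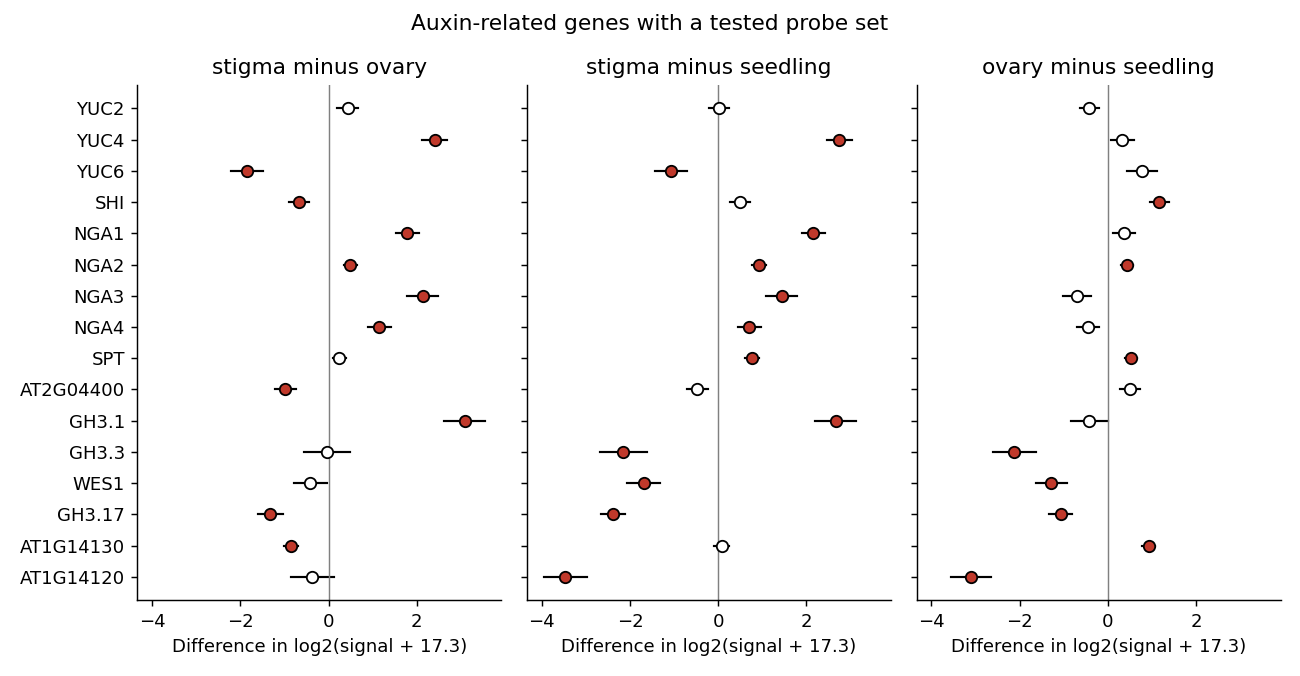
Log2 difference in the 3 comparisons for the 16 auxin-related genes with a tested probe set, ordered from YUCCA genes through regulators to tryptophan synthesis and auxin inactivation. Points are fitted differences with SE, filled where the adjusted p was under 0.05. YUC4, NGA1, NGA3 and GH3.1 lie to the right in both comparisons of the stigma, while YUC6 and GH3.17 lie to the left.

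The genes most like each of the 3 were sought by Pearson correlation over the 11 arrays among 8495 other tested, named probe sets. The arrays share their tissue, so these values mostly describe which tissue is high. YUC4 was closest to AT4G35720 (r = 0.988), AT4G15120 (0.983), AT3G55700 (0.977), the lectin gene EULS3 (0.976) and RALFL26 (0.975), a gene for a RALF-like signalling peptide. All 5 had their highest mean in stigma; AT4G35720, for instance, had a mean of 1243 in stigma against 129 in ovary and 113 in seedling. Among the listed auxin genes, GH3.1 (0.922) and NGA1 (0.918) were nearest to YUC4, at ranks 113 and 124, whereas SHI (0.01) was not.

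SHI was closest to AT4G02750 (r = 0.963), AT3G20460 (0.954), AT3G24230 (0.953), AT1G06750 (0.952) and AT5G45960 (0.946), which had their highest mean in ovary. AT5G45960 had 428 in ovary, 73.4 in stigma and 13.5 in seedling. YUC2 had looser companions, AT3G56230 (0.905), GPT (0.888), AT3G27210 (0.858), AT1G80245 (0.850) and AT1G05430 (0.848). Of the listed auxin genes, AT1G14130 was nearest to SHI (0.803, rank 623) and NGA4 to YUC2 (0.569, rank 419).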

How the data were processed

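The deposited values are linear signal intensities, 1 per probe set and array, on Affymetrix ATH1 arrays. The software that made them is not given in the sources at hand. The authors had scaled the arrays, since the 2% trimmed mean was 499.88 to 500.33 on all 11. The deposited run information holds another kind of unit (other) and gave the scanning run (A to D) and chip lot (1 to 3), per the file headers. For arrays, their number limits the precision.

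Groups came from the titles, since the stigma arrays carry the text written for ovary. The 64 control probe sets were set aside, and probe sets above 144.2, the 40th percentile, on at least 3 arrays were tested (15524 of 22746). The pseudocount, 17.3, is the 10th percentile. One mean per tissue was fitted in limma 3.58.1 (R 4.3.3) with a variance trend, 8 residual and 5.2 prior degrees of freedom, a procedure tested on simulated data. Gene names came from the supplied platform annotation, which gave 1 gene for 13513 probe sets, and RefSeq; no coordinates or sequences were used. Named genes were the 3 members, the measured genes of 7 auxin lists and the 5 probe sets most correlated with each member. The members and lists were chosen with earlier results of these data known. Alternatives changed the pseudocount, filter, scaling, variance model, samples and blocks.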

Additional observations from a re-analysis of the deposited data

Results flagged for a closer look

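Ovary 3 had a signal of 1195 for AT2G04400, the measured tryptophan synthesis gene, against 1023.3 to 1050 on the other ovary arrays, a gap larger than Dixon's 95% limit for 4 samples. It was the only such array among 34 groups examined (17 genes in ovary and in seedling), where chance alone flags about 1 in 20. No signal of YUC2, YUC4 or SHI was flagged in this way, and groups of 3 such as the stigma were not examined. The difference between the scanning runs in the contrast of stigma and ovary passed for none of the 16 tested auxin genes in limma. Of all 15524 probe sets, 27 passed. YUC4, NGA3, GH3.1 and AT2G04400 had an unadjusted p under 0.05 in limma. The share of all probe sets under that unadjusted limit was not counted, so these genes cannot be called unusual.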

How the results depend on the processing

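YUC4 stayed past the threshold in 27 of 27 alternatives against ovary (1.74 to 2.79) and 25 of 25 against seedling (1.78 to 3.26), counting lots with 1 array in a tissue. SHI was past it between ovary and seedling in 24 of 25, the exception being within lot 1 (1.10). A stricter filter (at least 8 arrays) left out YUC4 and SHI. In all counts of alternatives for stigma against ovary, runs A and B and lots 1 and 2 entered separately, though they hold the same stigma and ovary arrays. SHI between stigma and ovary lost its call with no filter (−0.67, adjusted p = 0.0537 in limma), equal medians (−0.52), quantile normalization (−0.54), the RNA quality covariate (−0.74), within run A and lot 1 (−0.42) and within run B and lot 2 (−0.82), and ran from −0.86 to −0.38 with 1 array left out. Between stigma and seedling SHI passed with quantile normalization (0.59) and ran from 0.31 to 0.79 with 1 array left out. YUC2 between ovary and seedling passed with equal medians and quantile normalization (−0.53 in both), and without seedling 1, in a leave-one-out range of −0.56 to −0.27. Between stigma and seedling YUC2, near 0, changed sign with the scanning run as a block (−0.027), within lot 2 (−0.022) and in a leave-one-out range of −0.17 to 0.20.

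Among other auxin genes that did not pass, GH3.3 between stigma and ovary changed sign with equal medians (0.12), the lot block (0.13), 3 arrays left out (0.0073), the run block (0.16), within run B and lot 2 (0.55) and with 1 array left out (−0.42 to 0.56). AT1G14120 did so within run A and lot 1 (0.47), and AT1G14130 between stigma and seedling with 3 arrays left out (−0.039) and with 1 left out (−0.016 to 0.17). Of the 13 other tested auxin genes, 5 were higher and 4 lower between stigma and ovary; 2 were higher with the stricter filter, within run A and within lot 1, and 2 lower within lot 1. Between stigma and seedling 6 higher became 3 with the stricter filter and 2 within lot 1, and 5 lower became 2, 2 and, within lot 2, 3. Between ovary and seedling 3 higher became 5 with the replicate block and 1 within lot 1, with 2 to 4 when 1 array was left out, and 4 lower became 2 with the stricter filter, 1 within lot 1 and 2 within lot 2. With the stricter filter 1581, 2661 and 2171 probe sets passed at 2-fold, against 2450, 4052 and 3536. The stricter filter left out YUC6, NGA3, NGA4, GH3.1, GH3.3 and AT1G14120, so its counts of auxin genes cover fewer genes. The cause of the other changes was not tested, and neither was the part played by the smaller number of samples or probe sets.

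Replicate numbers are shared between tissues, but same-numbered arrays deviated together weakly. Their r was −0.026 to 0.26 between stigma and ovary (other pairs −0.29 to 0.26), 0.015 to 0.058 between stigma and seedling (other pairs −0.068 to 0.026) and −0.079 to 0.069 between ovary and seedling (other pairs −0.19 to 0.18). The numbers were therefore not taken to pair the samples, although 2 of 3 same-numbered pairs of stigma and seedling exceeded every other pair. Between stigma and ovary the r went with the scanning run for stigma 1 and stigma 3. Stigma 1 had 0.22 and 0.26 with ovary 1 and ovary 2 of its run, and −0.29 and −0.21 with ovary 3 and ovary 4. Stigma 3 had 0.26 and 0.25 with ovary 3 and ovary 4 of its run, and −0.20 and −0.27 with ovary 1 and ovary 2. For stigma 2 the r ran from −0.062 to 0.097. The main fit held no term for the run. With the replicate block YUC4 was 2.31 against ovary and 2.64 against seedling, SHI −0.69 (adjusted p = 0.0384 in limma) and 1.17, and no call of the 3 genes changed. Dim signals, such as YUC4 outside the stigma, limit what a fold can show.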
